A study of Homo sapiens with 4 samples.

Results

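The genes examined here encode the Sm, LSm, snRNP and Gemin proteins, the protein parts of the small nuclear ribonucleoproteins (snRNPs) of the spliceosome, their cytoplasmic relatives in mRNA decay, and the assembly factors that load Sm proteins onto snRNA. Members were the rows whose gene symbol starts with SNRP followed by A to G or a digit, SNRNP followed by a digit, or LSM followed by a digit, or is GEMIN2 to GEMIN8, on the primary chromosomes. The rule found 37 of the 24934 rows. A further 5 LSM2 rows on alternative contigs were left out, and all 5 were listed at 0. The pseudogene SNRPD2P2 was listed at 0 FPKM in every library, so 36 members had values to compare, and all 36 stood above 1 FPKM (fragments per kilobase of transcript, scaled to library depth) in every library. The cells were HEK-293, a long-established line from human embryonic kidney, transfected for 48 h with 10 nM of 1 of 4 siRNAs: ZSCAN5A si4, ZSCAN5A si5, ZSCAN5B si1, or a scrambled negative control. Each siRNA gave 1 RNA-seq library, 4 in all, and nothing else about the cells differed by label. The comparisons ask which genes respond when the zinc finger protein ZSCAN5A or ZSCAN5B is reduced.

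In a snRNP, 7 Sm proteins close into a ring around a U-rich site of the U1, U2, U4 or U5 snRNA, and the SMN complex, made of SMN and the Gemins, loads them in the cytoplasm. The related LSm2 to LSm8 ring holds the 3′ end of U6 snRNA in the nucleus, and the LSm1 to LSm7 ring binds the ends of mRNAs that have lost their poly(A) tail and promotes decapping. In the U7 snRNP, which cleaves histone pre-mRNA, LSm10 and LSm11 take the places of SmD1 and SmD2. Most dividing cells express these genes at a high level.

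The libraries held an estimated 53700000 to 83000000 fragments. By that estimate si5 was 1.54 times as deep as the control, and the other siRNA libraries 1.02 to 1.09 times. These depths were read from the steps between low FPKM values, not counted from reads. The paper gives a narrower range of reads per sample, and the si5 estimate lies above it and the others below. The counting half-widths given further on rest on these estimates. With 1 control library no p-value is given, and single libraries have no replicate check. ZSCAN5A stood at 30.2% of the control with si4 and 29.5% with si5. ZSCAN5B was at 0.0903 FPKM in the control and 0.0948 FPKM with si1, which is 105% of the control. With si4 and si5 it stood at 36.6% and 73.4%. All these values are under 0.1 FPKM, too low to show whether si1 worked. By qRT-PCR and Western blot, the paper reports lower ZSCAN5B transcript and protein with si1. With si4 its qRT-PCR put ZSCAN5B above the control, the opposite side from the FPKM value, and with si5 near the control. Its qRT-PCR also put ZSCAN5D under the control with si4, si5 and si1. Here si1 is named as the library labelled ZSCAN5B knockdown, and no direction below is tied to lower ZSCAN5B. Of the HEK-293 markers, VIM, KRT8, KRT18 and NEFM stood between 8.46 and 359 FPKM, and PAX2 stood at 0.584 to 0.615 FPKM in the siRNA libraries and 1.16 FPKM in the control. All 8 markers of blood, endothelium, liver and fibroblasts were at 0.372 FPKM or below. In bulk RNA, fewer cells expressing a gene and less RNA per cell cannot be told apart.

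The members were highly expressed. Their median was 53.5 FPKM in the control, against 10.2 FPKM over the 12858 genes at 1 FPKM or above there. SNRPD2, at 456 FPKM, was the highest and GEMIN8, at 6.42 FPKM, the lowest of the 36, a 71.0-fold range. The core Sm genes took the first 3 places with SNRPD2, SNRPB and SNRPG, and the places at the bottom belonged to GEMIN2, GEMIN5, LSM11 and GEMIN8. Genes of 1 ring did not share 1 level, since core Sm mRNAs spanned 6.61-fold and the LSm ring mRNAs 5.24-fold in the control.

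**Figure D1:**
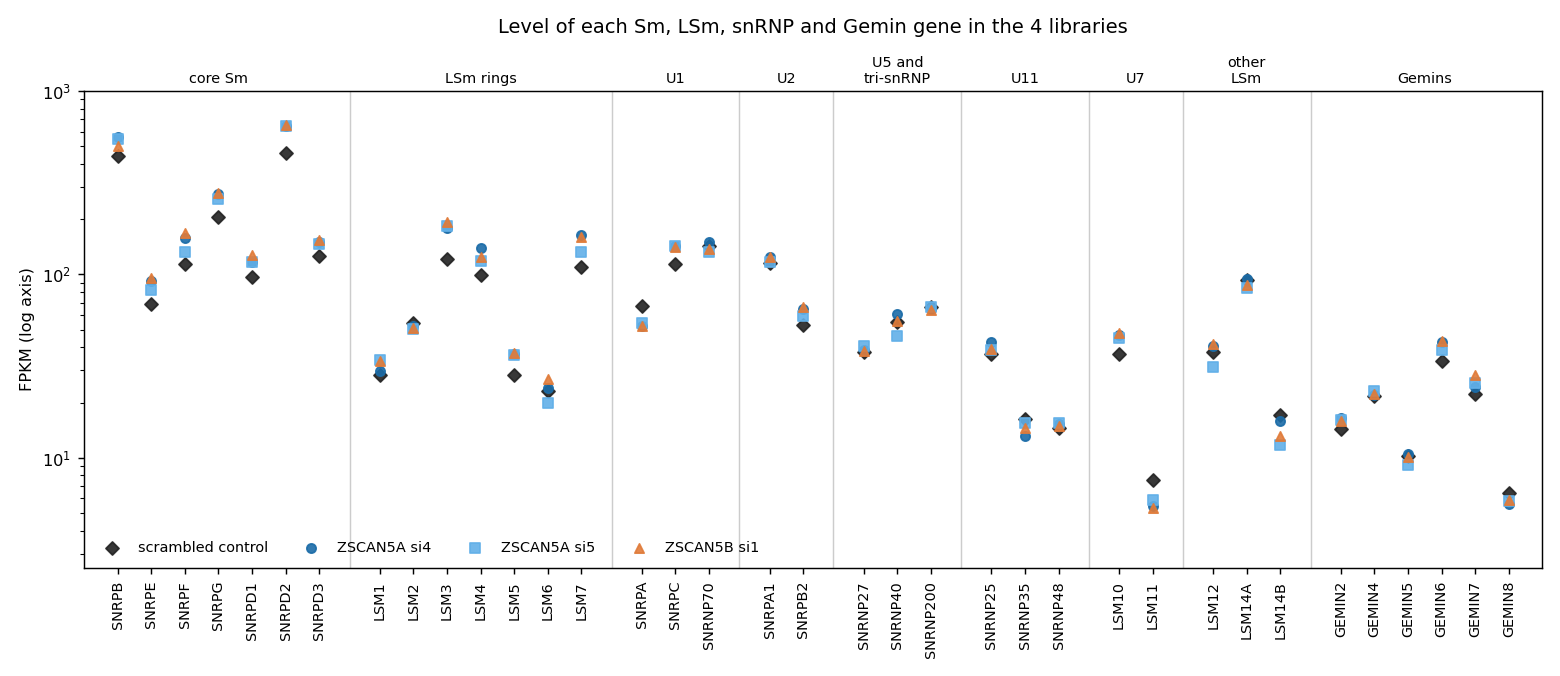
FPKM (log axis) of each of the 36 expressed members in the scrambled control (black diamonds), ZSCAN5A si4 (dark blue circles), ZSCAN5A si5 (light blue squares) and ZSCAN5B si1 (orange triangles), 1 library each, grouped by role. The control lies under the siRNA libraries in all 7 core Sm genes, while in 7 members, SNRPA, LSM11, LSM14B and GEMIN8 among them, it lies above them.

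Against the control, the rule for a change was a ratio above 1.5-fold in either direction with 1 FPKM in at least 1 library. With the mean of si4 and si5, 3.79% of 12993 genes passed it and 0 of 36 members did. With si1, 4.01% of 12921 genes passed, and 1 of 36 members, LSM3, was among them. Past a looser limit, 25% above in either direction, were 10 of 36 members and 18.5% of all genes with the ZSCAN5A siRNAs, and 16 of 36 members and 19.5% of all genes with si1. Differences under the rule were small and mostly upward. With the ZSCAN5A siRNAs 23 of 36 members were above the control, where 46.7% of all genes were, and with si1 26 of 36 members were, where 48.5% of all genes were. The control was the lowest of the 4 libraries in 23 of 36 members, against 30.1% of 12983 genes, and the highest in 7 of 36, against 36.2%. The 2 comparisons share their control library and are not separate evidence. The members' median log2 ratio was 0.15 with the ZSCAN5A siRNAs and 0.16 with si1, beside −0.02 and −0.01 over all genes. Scaling each library to the same FPKM sum moved the all-gene medians to −0.18 and −0.15 and the members' medians to −0.00 and 0.02. The members' median stood 0.17 above that of all genes in both comparisons, a gap that a common scaling leaves as it is. With trends over other genes removed the gap was 0.08 and 0.09 (transcript length and GC content), 0.10 and 0.10 (coding length and GC content) or 0.06 and 0.06 (transcript length and level). Ratios below are on FPKM as deposited, and where 4 FPKM values follow each other they are those of si4, si5, si1 and the control, in that order. Under the other scaling, 5 members with the ZSCAN5A siRNAs and 6 with si1 changed sign, none of which was over 0.14 from the control on the log2 scale. These were GEMIN4, SNRNP25, SNRNP27, SNRNP48 and SNRPA1 in both comparisons and SNRNP40 with si1.

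The upward shift lay mainly in the ring genes. The 14 genes of the core Sm ring and LSM1 to LSM7 had median log2 ratios of 0.34 with the ZSCAN5A siRNAs and 0.40 with si1, and 12 and 13 of them (85.7% and 92.9%) were above the control. There were 376 genes with a coding length of up to 500 nucleotides and a mean of 50 FPKM or above. Of these, 90.7% and 89.9% were above the control, and of the 11 members that meet both limits, 90.9% in each comparison. The share of ring genes was near that of such short, highly expressed genes. The ring set is not all within that definition. SNRPB has a coding length of 693 nucleotides, and LSM1, LSM5 and LSM6 lie under 50 FPKM. The other 22 members had medians of 0.02 in both comparisons, with 11 and 13 above the control. Counting error, estimated from the depth and the coding length, gave 95% half-widths of 0.02 to 0.21 on the log2 scale for the ZSCAN5A comparison and 0.03 to 0.26 for si1. By that measure, which covers counting error only, 21 members were above and 6 below the control with the ZSCAN5A siRNAs, and 20 above and 6 below with si1. The only spread between libraries of 1 group in these data is that between si4 and si5, a pooled SD of 0.13 on the log2 scale for a single member, and it holds no variation of the control library that all ratios share.

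**Figure D2:**
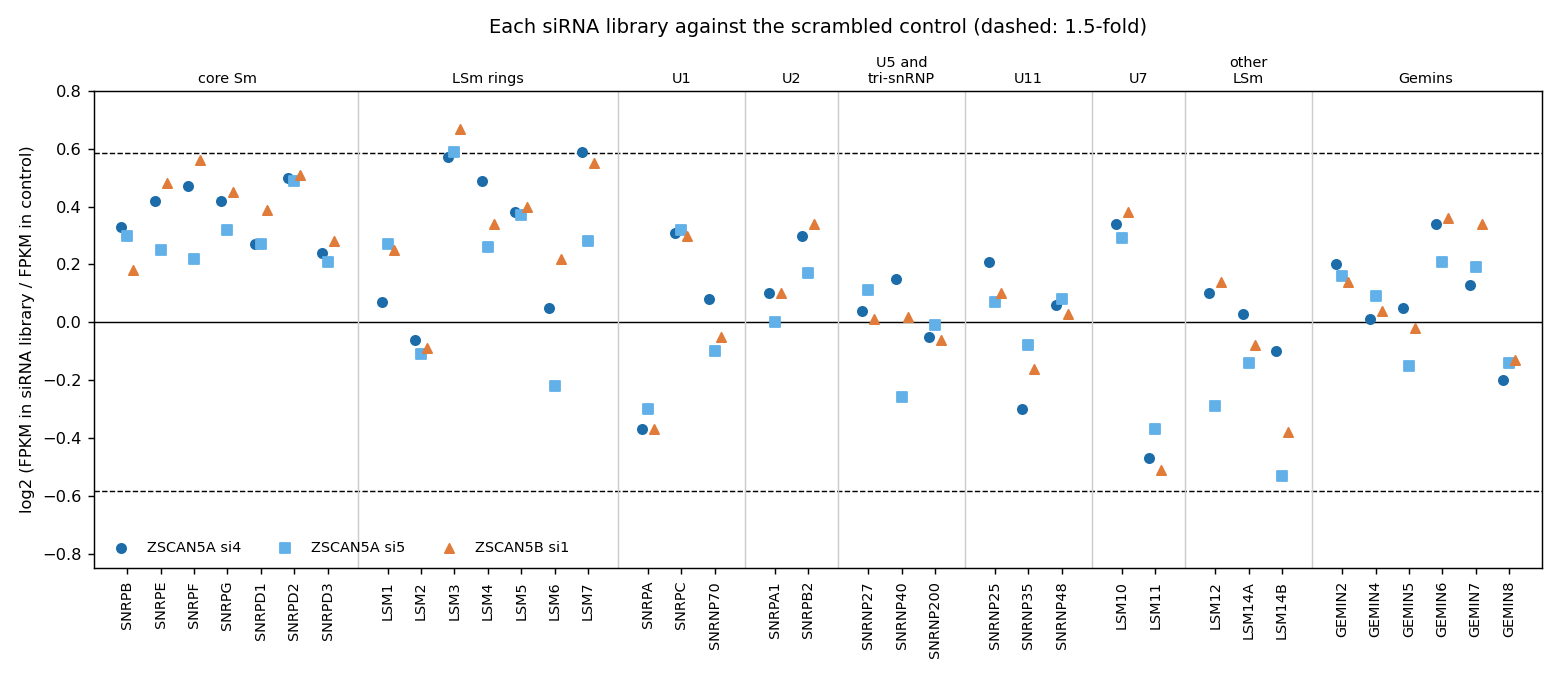
log2 ratio of FPKM in ZSCAN5A si4 (circles), ZSCAN5A si5 (squares) and ZSCAN5B si1 (triangles) to the control, for each of the 36 members by role, with dashed lines at 1.5-fold. All core Sm points lie between 0.18 and 0.56, and points of LSM3 and LSM7 reach the upper dashed line.

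All 7 core Sm genes were above the control in every siRNA library, and 0 of 7 passed 1.5-fold. Their median log2 ratio was 0.33 with the ZSCAN5A siRNAs and 0.45 with si1. SNRPD2 (chr19:46190712-46195443, minus strand, hg19), which encodes SmD2, stood at 644, 640 and 651 FPKM with si4, si5 and si1 and 456 FPKM in the control. The siRNA libraries lay close together and the control apart from them, with log2 ratios of 0.49 for the ZSCAN5A siRNAs and 0.51 for si1. SNRPB (chr20:2442281-2451499, minus strand), the gene of SmB and SmB′, stood at 559, 546, 502 and 444 FPKM. Its log2 ratio was 0.31 with the ZSCAN5A siRNAs and 0.18 with si1, and it was the only core Sm gene with a lower ratio with si1.

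SmE, SmF and SmG bind each other in a trimer before they join the ring. SNRPE (chr1:203830740-203840280) stood at 92.1, 81.7 and 95.9 FPKM with si4, si5 and si1 and 69.0 FPKM in the control. SNRPF (chr12:96252709-96260238) stood at 157, 133, 168 and 114 FPKM. SNRPG (chr2:70508506-70520869, minus strand) stood at 274, 256, 279 and 205 FPKM. In all 3 genes the order was the same, with si1 highest, then si4, then si5, and the control lowest. Their log2 ratios were 0.33, 0.35 and 0.37 with the ZSCAN5A siRNAs and 0.48, 0.56 and 0.45 with si1.

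SmD1 and SmD2 form a dimer, and SmD3 pairs with SmB. SNRPD1 (chr18:19192260-19210208) stood at 117 FPKM with si4 and with si5, 127 FPKM with si1 and 97.1 FPKM in the control, with log2 ratios of 0.27 and 0.39. SNRPD3 (chr22:24951618-24968509) stood at 150, 146, 153 and 126 FPKM, with log2 ratios of 0.23 and 0.28. With the ZSCAN5A siRNAs SNRPD3 was the closest of the 7 to the control, and SNRPD2 the farthest.

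Upstream regions of core Sm genes are shown because all 7 stood on the same side of the control. Of 11 motifs searched on both strands, from 250 bases before to 50 bases after the start of the GENCODE canonical transcript, the ETS core CCGGAAG was in 13 of 36 members (36.1%) and in 6 of the 14 ring genes, against 19.6% of 12382 genes at 1 FPKM or above. The shorter ETS core CGGAAG, which lies inside it, was in 16 members (44.4%) against 33.6% of genes, and the CCAAT box, CCAAT, was in 18 (50%) against 36.4%. The SP motif GGGCGG was in 22 members (61.1%) against 75.7%. The E box CACGTG was in 4 members (11.1%) against 10.5%, and ACTACAA, of ZNF143, in 2 (5.56%) against 3.72%. TTTCCCGC, of E2F, was in 2 members (5.56%) against 2.75%, and the relaxed CRE TGACGTNA, which covers the CRE TGACGTCA, in 2 (5.56%) against 5.23%. The full CRE, AAGATGGC of YY1 and the TATA box TATAAA were each in 1 member (2.78%), against 3.59%, 5.86% and 5.10% of genes. A match says only that the letters are there. The 150 bases before the start follow for the 4 core Sm genes with CCGGAAG in that stretch, from the GRCh37 genome, 5′ to 3′ on the gene's strand, with matches on either strand in capitals.
SNRPB, chr20:2451436-2451585, minus strand: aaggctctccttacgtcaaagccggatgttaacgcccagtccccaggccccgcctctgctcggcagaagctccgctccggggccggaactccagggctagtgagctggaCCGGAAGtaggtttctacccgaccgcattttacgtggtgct
SNRPD1, chr18:19192125-19192274, plus strand: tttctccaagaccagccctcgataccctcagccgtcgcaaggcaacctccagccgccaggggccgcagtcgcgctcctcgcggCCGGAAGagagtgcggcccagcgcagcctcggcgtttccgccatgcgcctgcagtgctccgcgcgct
SNRPE, chr1:203830577-203830726, plus strand: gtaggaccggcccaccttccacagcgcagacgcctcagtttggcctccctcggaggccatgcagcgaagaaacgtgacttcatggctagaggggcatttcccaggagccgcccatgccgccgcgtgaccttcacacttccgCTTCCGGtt
SNRPG, chr2:70520873-70521022, minus strand: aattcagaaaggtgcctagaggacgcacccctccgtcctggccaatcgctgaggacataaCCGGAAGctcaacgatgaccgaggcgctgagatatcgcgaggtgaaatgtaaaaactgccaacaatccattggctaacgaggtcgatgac
In the order shown, these matches start 41, 67, 9 and 90 bases before the start of the canonical transcript, so they have no common distance from it. The SNRPB match lies inside the SNRPB row as deposited, which begins farther upstream. SNRPD1 and SNRPE each hold a further match, 29 and 7 bases after that start. SNRPD2, the core Sm gene farthest from the control with the ZSCAN5A siRNAs, held the shorter core and not the longer.

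Of the LSM1 to LSM7 genes, 5 were above the control with the ZSCAN5A siRNAs and 6 with si1, with median log2 ratios of 0.38 and 0.34. LSM3 (chr3:14220228-14239869), a subunit of both rings, had the highest ratio of any member. It stood at 179, 183 and 192 FPKM with si4, si5 and si1 and 121 FPKM in the control, so the siRNA libraries lay close together and above the control. LSM3 rose 1.59-fold (log2 0.67) with si1, and its log2 ratio with the ZSCAN5A siRNAs, 0.58, was just under the limit. The call with si1 was lost with the coding length and GC trend removed, at 0.48, and held with transcript length and GC, at 0.64, or transcript length and level, at 0.60, removed. With no trend removed, LSM3 was past the limit with si5 alone, at 0.59, and not with si4 alone, at 0.57. LSM2 (chr6:31765169-31774761, minus strand), which neighbours LSM3 in the ring, stood at 52.2, 50.5 and 51.2 FPKM with si4, si5 and si1 and 54.4 in the control. The LSM2 log2 ratio was −0.09 in both comparisons, within its counting half-widths of 0.12 and 0.14. With trends removed LSM2 lay beyond them. It stood at −0.24 and −0.24 (transcript length and GC), −0.23 and −0.25 (coding length and GC) or −0.31 and −0.32 (transcript length and level). The 2 genes thus differed in ratio although their proteins share both rings.

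The ratios of the rest of the LSm ring genes lay between those 2. LSM7 stood at 163, 132 and 159 FPKM with si4, si5 and si1 and 109 FPKM in the control, and it passed 1.5-fold in the si4 library taken by itself (log2 ratio 0.59). LSM4 and LSM5 had log2 ratios of 0.38 each with the ZSCAN5A siRNAs and 0.34 and 0.40 with si1. LSM6 had log2 ratios of −0.08 and 0.22, with si5 the lowest library, at 19.9 FPKM. LSM1, the subunit that marks the cytoplasmic ring, had 0.17 and 0.25. LSm8, which marks the nuclear ring, is not a symbol of the table, but the row named NAA38 lies at chr7:117824086-117844093, over the GENCODE gene LSM8. That row stood at 6, 6.82 and 6.59 FPKM with si4, si5 and si1 and 5.95 FPKM in the control, with log2 ratios of 0.11 and 0.15.

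The 3 proteins particular to U1 snRNP, which pairs with the 5′ splice site, did not share a direction. SNRPC, the zinc finger protein of U1, stood at 142, 143 and 141 FPKM with si4, si5 and si1 and 114 FPKM in the control, with log2 ratios of 0.32 and 0.30. SNRPA, which binds a stem-loop of U1 snRNA, stood at 52.1, 54.6 and 52.1 FPKM with si4, si5 and si1 and 67.1 FPKM in the control. Its siRNA libraries all lay under the control, by log2 ratios of −0.33 and −0.37, and close together. SNRNP70, which binds the first stem-loop of U1, had log2 ratios of −0.01 and −0.05. The SNRPC row has 18 named pseudogenes in the annotation, so reads may be shared with copies.

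Of the U2 proteins, which bind U2 snRNA as a pair, SNRPB2 stood at 64.7, 59.0 and 66.6 FPKM with si4, si5 and si1 and 52.6 FPKM in the control. SNRPA1 stood at 125, 117, 125 and 116 FPKM. The log2 ratios were 0.23 and 0.34 for SNRPB2 and 0.05 and 0.10 for SNRPA1. The U5 and tri-snRNP proteins were near the control. SNRNP200, the helicase that unwinds U4 from U6, stood at 64.4, 66.2, 63.7 and 66.5 FPKM, with log2 ratios of −0.03 and −0.06. SNRNP27 stood at 38.8, 40.7, 38.0 and 37.7 FPKM. SNRNP40, a WD repeat protein of U5, stood at 61.0, 46.0 and 55.6 FPKM with si4, si5 and si1 and 54.9 FPKM in the control, so the si4 and si5 libraries lay on opposite sides of the control.

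The minor spliceosome, which removes a small class of introns, has its own proteins of U11 snRNP. SNRNP25 stood at 42.5, 38.5 and 39.4 FPKM with si4, si5 and si1 and 36.7 FPKM in the control. SNRNP35 stood at 13.2, 15.4, 14.5 and 16.2 FPKM, with the control highest and log2 ratios of −0.18 and −0.16. SNRNP48 had log2 ratios of 0.07 and 0.03. None of the 3 passed 1.5-fold, and only SNRNP35 lay under the control.

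LSM10 and LSM11, the pair particular to U7 snRNP, lay on opposite sides of the control in every siRNA library. LSM10 (chr1:36859031-36863493, minus strand) stood at 46.7, 45.1 and 47.9 FPKM with si4, si5 and si1 and 36.9 FPKM in the control. LSM11 (chr5:157170755-157183746) stood at 5.46, 5.86, 5.31 and 7.55 FPKM. The siRNA libraries of each gene lay close together and apart from the control, with log2 ratios of 0.31 and 0.38 for LSM10 and −0.42 and −0.51 for LSM11. The LSM10 level was 4.89 times the LSM11 level in the control and 8.54, 7.70 and 9.02 times with si4, si5 and si1. The ratio within a library does not depend on how libraries are scaled. It is not corrected for trends with gene length or level, and values of both genes with those trends removed are given below. LSM11 had the lowest log2 ratio of all 36 members in both comparisons, and its 95% counting half-width was 0.17 with the ZSCAN5A siRNAs and 0.21 with si1.

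The LSm proteins outside the rings, LSM12, LSM14A and LSM14B, carry further domains, and LSM14A takes part in P-bodies and in repression of translation. LSM14B stood at 15.9, 11.8 and 13.1 FPKM with si4, si5 and si1 and 17.1 FPKM in the control, with log2 ratios of −0.30 and −0.38. The control was the highest library, and the si4 value lay nearest to it. LSM14A stood at 94.8, 84.5, 87.8 and 92.8 FPKM, with log2 ratios of −0.05 and −0.08. LSM12 stood at 40.7, 31.1, 41.9 and 37.9 FPKM, with si5 alone under the control.

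The 6 Gemins had median log2 ratios of 0.10 with the ZSCAN5A siRNAs and 0.09 with si1, and 4 of 6 were above the control in both. With each library at the same FPKM sum both medians were −0.05, against −0.18 and −0.15 over all genes. GEMIN6, which pairs with GEMIN7 in a fold like that of the Sm proteins, stood at 42.5, 38.9 and 43.2 FPKM with si4, si5 and si1 and 33.6 FPKM in the control. GEMIN7 (chr19:45582518-45594782) stood at 24.4, 25.4, 28.3 and 22.3 FPKM. Both had the control lowest, with log2 ratios of 0.28 and 0.36 for GEMIN6 and 0.16 and 0.34 for GEMIN7. The paper lists GEMIN7 among the genes that rose after ZSCAN5B knockdown and lie close to a ZSCAN5B peak. Its limit for that knockdown was 1.5-fold, and GEMIN7 was 1.27-fold the control with si1 here, under that limit. GEMIN8, which joins the GEMIN6 and GEMIN7 pair to SMN, stood at 5.58, 5.82, 5.87 and 6.42 FPKM, with the control highest. The other 3 Gemins had log2 ratios from −0.04 to 0.18 with the ZSCAN5A siRNAs. Antisense genes overlap exons of GEMIN7 (GEMIN7-AS1) and of LSM1, and whether the counting used strand is not given in the sources used here.

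Partner genes of the same pathways, outside the rule, were read from 8 lists. Of their 73 rows above 1 FPKM, 0 were higher and 2 were lower past 1.5-fold with the ZSCAN5A siRNAs, and 0 were higher and 3 were lower with si1, which are shares near the 3.79% and 4.01% of all genes. Their median log2 ratios were 0.07 and 0.08, and −0.09 and −0.06 with each library at the same FPKM sum, which is above the all-gene medians of −0.18 and −0.15. ATXN2, an RNA-binding protein with LSm-like domains, fell with both, from 9.22 FPKM in the control to 5.87, 4.95 and 6.02 FPKM with si4, si5 and si1. Its relative ATXN2L fell with both too, from 33.4 FPKM to 20.3, 22.7 and 20.3. PATL1, the decay factor that binds the LSm1 to LSm7 ring, fell with si1, from 12.7 to 8.45 FPKM (log2 ratio −0.59), and stood at −0.56 with the ZSCAN5A siRNAs.

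By list, 0 members of the SMN complex and Sm methylation list passed the limit, and 9 of its 10 rows were above the control with the ZSCAN5A siRNAs and 8 with si1. Among them the SMN1 and SMN2 rows, near-identical copies that share reads and stand on 2 rows each, are uncertain. Of 10 decay partners of the LSm1 to LSm7 ring, 3 were above the control with the ZSCAN5A siRNAs and 2 with si1. Over all genes these shares were 46.7% and 48.5%. None of 12 U2 SF3, 14 tri-snRNP, 5 minor spliceosome, 8 histone mRNA processing and 10 snRNA export and import rows passed the limit in either comparison. SNRPN and SNURF, whose rows overlap, were listed at 0 in every library. Whether that means no expression or no quantification of the locus is not given in the sources used here.

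Gene length and level moved with these ratios. Over the 36 members, Spearman's rho of the log2 ratio with coding length was −0.61 with the ZSCAN5A siRNAs and −0.74 with si1, and over all genes −0.31 and −0.33. With the mean FPKM it was 0.64 and 0.56 over the members and 0.38 and 0.34 over all genes. These are descriptions across genes, which share the same 4 libraries. Among the 18 members with a coding length of up to 500 nucleotides the median log2 ratios were 0.32 and 0.36, beside 0.14 and 0.15 for all genes that short. Of the members that were both that short and at 50 FPKM or above, 11 in number, the medians were 0.35 and 0.45, beside 0.23 and 0.24 for the 376 such genes. With the median of genes of similar coding length and GC content taken off, the core Sm medians were 0.20 and 0.28, with 7 of 7 above the control, and LSM3 stood at 0.43 and 0.48. The LSm ring medians were then 0.25 and 0.23. With transcript length and level taken off, the LSm ring medians were 0.22 and 0.18 and the core Sm medians 0.16 and 0.29, with 7 and 6 of 7 above the control. SNRPB with si1 was the exception, at −0.05. Of the U7 pair, LSM11 stood at −0.43 and −0.56 under the first of these and −0.29 and −0.38 under the second, and LSM10 at 0.17 and 0.22 and then 0.09 and 0.15. The value of 0.09 is within the counting half-width of LSM10, 0.12. SNRPC stood at 0.18 and 0.15 and then 0.09 and 0.07, and SNRPA at −0.36 and −0.41 and then −0.48 and −0.52. Whether length or level has a part in the ring genes' ratios was not tested beyond these values.

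**Figure D3:**
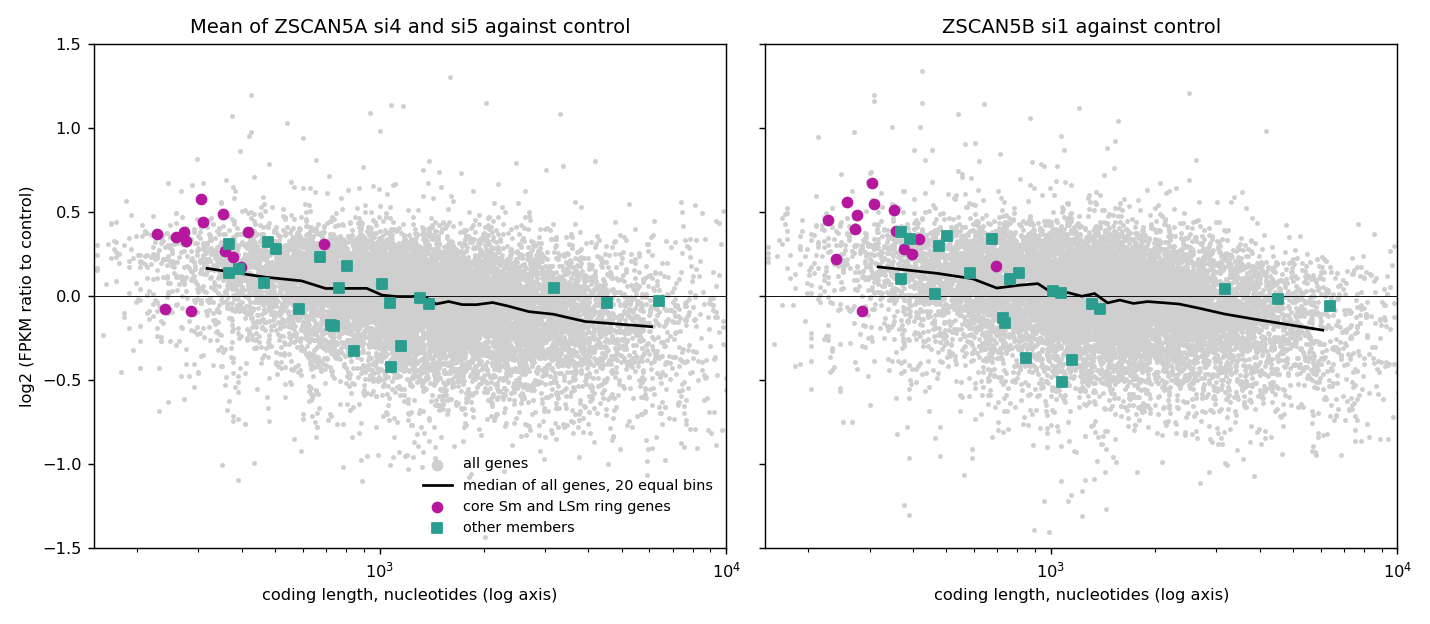
log2 FPKM ratio to the control against coding length (log axis) for all genes (grey), the core Sm and LSm ring genes (purple circles) and the other members (green squares), with the mean of ZSCAN5A si4 and si5 on the left and ZSCAN5B si1 on the right; the line joins medians of all genes in 20 equal bins, and 73 and 74 genes lie outside the axes. The ring genes are short, and 12 of 14 on the left and 13 of 14 on the right lie above 0.

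The siRNA libraries were also compared with each other. The library labelled ZSCAN5B knockdown over the mean of si4 and si5 gave a members' median log2 ratio of 0.03, from −0.14 to 0.30, beside 0.01 over all genes. Si4 over si5 gave 0.04, from −0.22 to 0.43, beside 0.02 over all genes. The median size of the si4 to si5 difference was 0.10 for members and 0.11 for all genes. These comparisons do not use the control. Past 1.5-fold, 0 of 36 members were called in either, against 1.31% and 2.53% of all genes. The core Sm genes were at least as high with si4 as with si5 in 7 of 7, by a median of 0.04, which is also the median of all members, and 54.6% of all genes were higher with si4. The 3 genes LSM12, LSM14A and LSM14B were higher with si4 by 0.17 to 0.43.

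The siRNA sequences are shown because each can pair by its seed, guide bases 2 to 8, with other mRNAs. Each line gives the guide strand, 5′ to 3′, as the reverse complement of the supplied target sequence, with the seed in capitals.
ZSCAN5A si4 guide: tTACACGTaaacctcttctcg
ZSCAN5A si5 guide: tCTCTTGTggatgactagctt
ZSCAN5B si1 guide: tAAATGATttattgcacacgt
Sites that match a seed were sought in the 3′ UTR of the GENCODE canonical transcript, which was available for 12028 genes above the limit. The si4 site was in 404 genes (3.36%) and in 0 of 36 members. The si5 site was in 1441 genes (12%) and in 3 members, LSM12, SNRNP40 and SNRPD1. The si1 site was in 2809 genes (23.4%) and in 4 members, LSM11, SNRNP27, SNRNP40 and SNRPD1. The si5 sites are shown with 8 bases on each side and the match in capitals.
LSM12, 3′ UTR base 173 of 1880: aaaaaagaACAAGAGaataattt
SNRNP40, 3′ UTR base 394 of 504: gcctttttACAAGAGccatgtgg
SNRPD1, 3′ UTR base 529 of 4382: tgattgccACAAGAGtagggtac

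Against the mean of si4 and si1, the si5 library stood at log2 ratios of −0.41 for LSM12, the lowest of the 36 members, −0.34 for SNRNP40, the third lowest, and −0.06 for SNRPD1. Members without the site were also low there, with LSM6 at −0.36, LSM14B at −0.30 and LSM7 and SNRPF at −0.29. Over all genes, those with the si5 site had a median of −0.04 and those without −0.01, with 62.4% and 53.8% lower with si5. The si4 site went with a median of −0.16, against 0.01 without it, and the si1 site with −0.02, against 0.02. Genes with a site had longer 3′ UTRs, with medians of 3136 to 3414 bases against 999 to 1323. With si1, the members with its site stood between −0.09 and 0.12 of the other siRNA libraries. The part of the seed in these values was not tested, and which 3′ UTR these cells use was not examined.

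**Figure D4:**
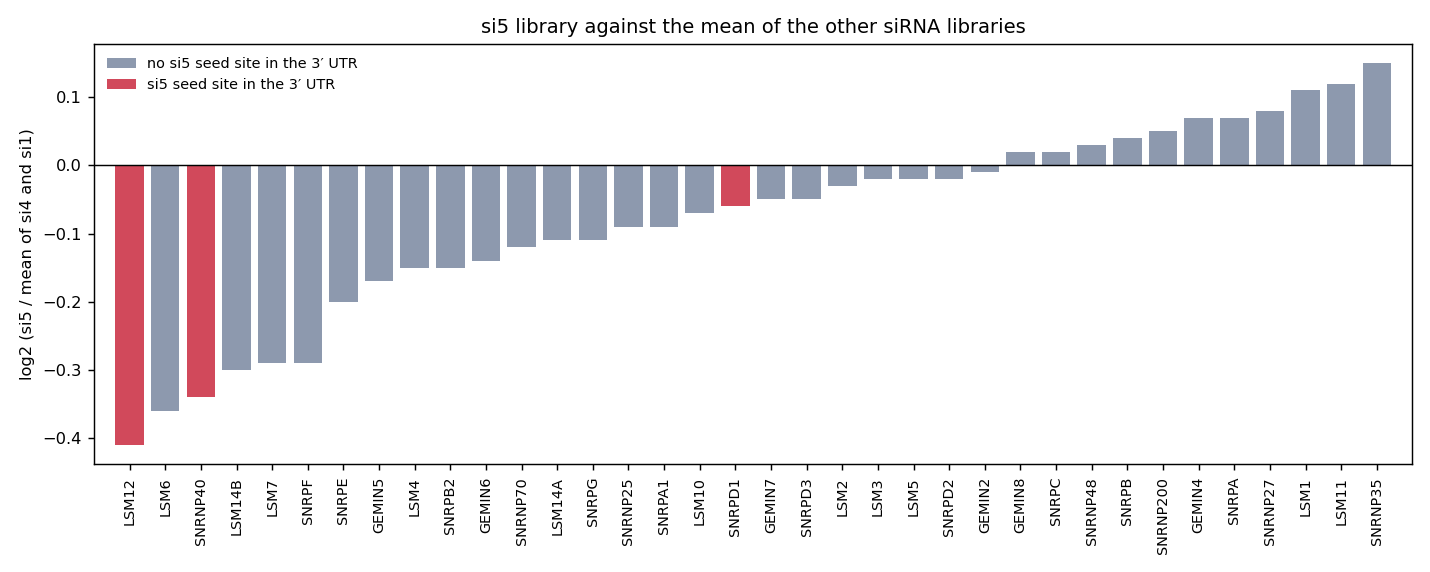
log2 ratio of FPKM in the si5 library to the mean of the si4 and si1 libraries for each of the 36 members, ordered from the lowest, with red bars for members whose 3′ UTR holds the si5 seed site and grey bars for the others. LSM12 and SNRNP40 lie at −0.41 and −0.34 among members without the site, and SNRPD1 at −0.06.

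Several members have processed copies elsewhere in the genome, which could take or give reads. The annotation names 20 pseudogenes for SNRPG, 18 for SNRPC, 10 for SNRPE, and 4 each for SNRPF, LSM3 and GEMIN8. It names 0 for, among others, SNRPD1, SNRPD3, LSM4, LSM5, LSM7, LSM2, LSM11, LSM14B and SNRPA. Most members with a named copy stood above the control, SNRPG, SNRPC, SNRPE, SNRPF and LSM3 among them. GEMIN8 alone of the members with copies lay below it in both comparisons. LSM6, LSM12 and SNRNP40, with 1 copy each, lay below it with the ZSCAN5A siRNAs and above it with si1. Members without copies were more mixed. SNRPD1, SNRPD3, LSM4, LSM5 and LSM7 stood above the control, and LSM2, LSM11, LSM14B and SNRPA below it. The part of such copies in the ratios was not tested. How reads that map to several places were shared out is not given in the sources used here.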

How the data were processed

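RNA-seq of HEK-293 cells transfected with ZSCAN5A si4, ZSCAN5A si5, ZSCAN5B si1 or a scrambled control was used, 1 library each. The authors deposited 1 table of FPKM values on hg19; the submitters' notes name CASAVA 1.8.2, Trimmomatic 0.30, TopHat2 2.1.0 and Cufflinks 2.2.1. Labels and methods name different stranded mRNA kits. The values were used as deposited.

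The mean of si4 and si5, and si1, were compared with the control by a 1.5-fold rule with 1 FPKM in at least 1 library and no pseudocount. With 1 control library no p-value was computed. Counting error came from FPKM, coding length and fragments per library, which were read from whole-number steps among 70.2% of 1745 genes under 0.1 FPKM (tolerance 0.05%). GENCODE on GRCh37 matched 94.8% of 13078 rows at 1 FPKM or above. The fold rule and the estimate of relative depth were tested on simulated data.

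Every member was described by role. Values in all libraries are given for the core Sm genes, members past the limit, the highest and lowest member of each other role, and LSM10 and GEMIN7. LSM7, LSM12, SNRNP200 and the LSM8 row were added after their values were seen. The members and lists were chosen with earlier results of these data known. Python 3.11.15, NumPy 2.4.6, pandas 2.3.3 and matplotlib 3.10.9 were used.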

Additional observations from a re-analysis of the deposited data

How the results depend on the processing

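Of 148 summary values under other settings, 20 moved by over 0.13 on the log2 scale or, for counts, 1.5 times. The partner medians changed sign with each library at the same FPKM sum, from 0.07 and 0.08 to −0.09 and −0.06. That bar is the spread of single members and is wide for a median, and the expression limits cannot move the members' medians. With the ZSCAN5A siRNAs the number of members past the limit, 0, was 1 without si4 (LSM3), 1 without si5 (LSM7), and 1 each with median-ratio and upper-quartile scaling. Without si5, 6 members within 0.08 of the control on the log2 scale changed sign, namely GEMIN5, LSM6, LSM12, LSM14A, SNRNP40 and SNRNP70, and without si4, 0 did. A looser fold limit, 25% above in either direction, gave 10 members with the ZSCAN5A siRNAs and 16 with si1, beside 18.5% and 19.5% of all genes, and a limit of 2 gave 0 with si1. With each library at the same FPKM sum, the medians with the ZSCAN5A siRNAs and si1 were −0.00 and 0.02 for the members, 0.18 and 0.31 for the core Sm genes, and −0.09 and −0.06 for the partners. Removing trends moved the core Sm medians to 0.20 and 0.27 (transcript length and GC), 0.20 and 0.28 (coding length and GC) and 0.16 and 0.29 (transcript length and level), and with the second of these 0 members passed the limit with si1. The coding length and level settings were chosen after seeing the data. No paired analysis was possible because the control has 1 library. The single control library limits all comparisons with it.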
